A study of Mus musculus with 47 samples.

Results

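Of the 13 mRNAs encoded by mouse mitochondrial DNA (mtDNA), 7 were followed here: mt-Nd1, mt-Nd2, mt-Nd4, mt-Nd5 and mt-Nd6, which encode membrane subunits of respiratory complex I, mt-Cytb, which encodes the cytochrome b subunit of complex III, and mt-Co1, which encodes the catalytic subunit of complex IV. They form a fixed list of mRNAs that have no identical nuclear copy of full or nearly full length in the reference build GRCm39. The rule itself used no measured value, but it was set with earlier results of these data known. mt-Nd3, of whose 348 bases 345 recur in one identical stretch on chromosome 1, was left out with the 5 mRNAs that are copied whole. All 7 passed the filter on low counts in every comparison. The table of read counts covered 37 mtDNA genes among 56748 genes in all.

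The series is bulk RNA-seq of B78-D14 cells, an amelanotic mouse melanoma line of the B16 lineage that lacks Cdkn2a, in which a mitochondrial cytosine base editor (DdCBE) had turned a tryptophan codon of mt-Nd5 into a stop codon. The cultures were 4 of m.11,944G>A cells at 60% heteroplasmy (the share of mtDNA copies with the edit, here m.11,944 60% cells) and 4 of wild-type control cells. The tumors were 4 control tumors of wild-type cells and 7 tumors each of m.12,436G>A cells at 60% and at 40% heteroplasmy (m.12,436 60% and 40% tumors). Each was a fragment of a subcutaneous tumor grown in immunocompetent male C57BL/6 mice. The percentages are those of the engrafted cells, and the paper reports a slightly lower heteroplasmy in the resulting tumors. No sample was treated, the edited cells were sorted populations and not single clones, and the labels do not say whether numbered samples came from separate experiments, so the p-values measure the spread between these samples. Tumor fragments contain host cells with unedited mtDNA, and in bulk RNA fewer cells of a type cannot be told apart from less RNA per cell. Total counts were 16475735 to 36173502 per sample, and each of the 7 mRNAs had 1141 to 191037 counts in each sample. The share of the 7 mRNAs' counts taken by any of them had a 95% Wilson interval of at most 0.357 percentage points to either side, which covers counting error only.

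Vertebrate mtDNA is transcribed from both strands as long precursors that are cut into rRNAs, tRNAs and mRNAs, largely at the tRNAs that lie between the genes. The mRNAs of one strand start from a shared precursor, and their levels come apart through processing and decay, for which the LRPPRC and SLIRP proteins are known stabilizers. mt-Nd6 is the single mRNA on the opposite strand. Several mRNAs end without a complete stop codon, which polyadenylation then completes, and mtDNA-like sequences also occur in nuclear chromosomes, where short reads can align equally well.

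Both edits fall in mt-Nd5 (chrM:11742-13565, plus strand, ENSMUSG00000064367), and both turn TGA, which mitochondria read as tryptophan, into TAA. The reference sequence around each codon is shown because the 2 edited lines differ by it, with the codon in capitals.
mt-Nd5 around m.11,944, GRCm39 chrM:11928-11960, plus strand: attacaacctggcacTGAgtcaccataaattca
mt-Nd5 around m.12,436, GRCm39 chrM:12420-12452, plus strand: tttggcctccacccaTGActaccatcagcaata
The first edit, G11944A counted along chrM, lies in codon 68 of 608 codons (the stop included), and 11.1% of the mRNA comes before it. The second, G12436A, lies in codon 232, after 38.1% of the mRNA. A count per gene does not show the edited base, so neither heteroplasmy nor the labels could be checked on these values.

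The 3′ ends are shown because they tell the mRNAs with a complete stop codon from those without one. Each sequence is the last part of the gene in GRCm39, read in the sense of the mRNA, with the stop codon or the lone last base in capitals.
mt-Nd1, chrM:3693-3707, plus strand: ccaccatacataTAG
mt-Nd2, chrM:4937-4951, plus strand: caactaattaccTAG
mt-Nd4, chrM:11532-11544, plus strand: ggcctgacaataT
mt-Nd5, chrM:13551-13565, plus strand: attaatctcgagTAA
mt-Nd6, chrM:13552-13566, minus strand: attactcgagatTAA
mt-Cytb, chrM:15276-15288, plus strand: aaattatatccaT
mt-Co1, chrM:6858-6872, plus strand: gtaaaagtaaaaTAA
mt-Nd4 and mt-Cytb end in a lone T, and the other 5 end in TAG or TAA. The genes mt-Nd5 and mt-Nd6 lie tail to tail on opposite strands and share 14 bases, in capitals in the reference sequence of chrM:13542-13575, plus strand.
mt-Nd5 and mt-Nd6 overlap: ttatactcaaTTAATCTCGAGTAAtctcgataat
Whether the counting used strand is not given in the sources used here, so antisense RNA of mt-Nd5 and RNA of mt-Nd6 cannot be told apart in that stretch, and likewise elsewhere on either strand. mt-Nd6 also stands apart in composition, with 28.1% G against at most 16.1% (mt-Co1) in the other 6.

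Not every one of the 7 mRNAs is equally free of nuclear copies. Of the windows of 100 bases in each gene, the share found letter for letter in a nuclear chromosome of GRCm39 was 60.8% for mt-Nd4, 30.8% for mt-Co1 and 3.19% for mt-Nd2, and 0 for mt-Nd1, mt-Nd5, mt-Nd6 and mt-Cytb. The longest identical stretch was 876 bases of mt-Nd4 (chrM:10167-11042), which recurs on chromosome 1, followed by 479 bases of mt-Co1 (chrM:6394-6872), also on chromosome 1. The corresponding values were 129 bases for mt-Nd2, 95 for mt-Nd5, 47 for mt-Cytb and 39 for mt-Nd6, while mt-Nd1 had no identical stretch of 31 bases or more. The counts of mt-Nd4 and mt-Co1 are thus uncertain where reads with several equal alignments were left out, a setting that is not given in the sources used here.

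**Figure D1:**
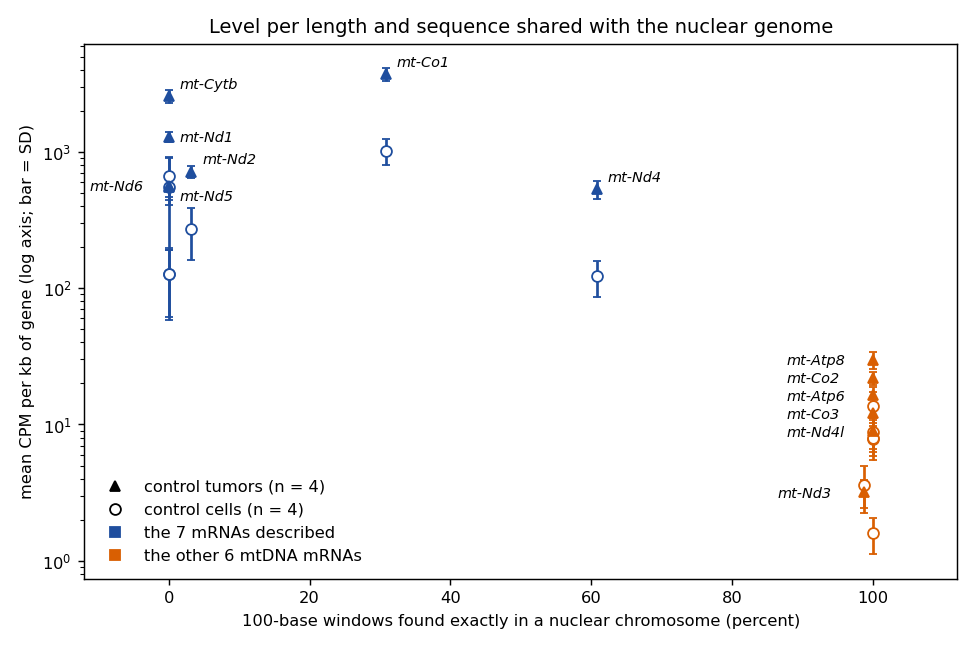
The plot sets the percent of 100-base windows of each mtDNA mRNA found exactly in a nuclear chromosome of GRCm39 (x axis) against its mean CPM (counts per 1000000 counts of a sample) per kilobase of gene (y axis, log scale), as triangles for control tumors and open circles for control cells (n = 4 each, bars: SD), in blue for the 7 mRNAs and orange for the other 6. The 7 mRNAs lie at 0 to 60.8% of windows and, in the control tumors, between 534 (mt-Nd4) and 3716 (mt-Co1), while the other 6 lie at 98.8% or more and far lower in both groups.

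The other 6 mRNAs (mt-Co2, mt-Atp8, mt-Atp6, mt-Co3, mt-Nd3 and mt-Nd4l) had nuclear copies of nearly their whole length and hardly any counts. Together they made up 0.274% to 0.986% of the counts of all 13 mRNAs. Averaged over all samples, the 7 mRNAs lay between 398 (mt-Nd4) and 2968 (mt-Co1) CPM per kilobase, and the other 6 between 3.16 (mt-Nd3) and 22.4 (mt-Atp8).

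Per length, the order of the 7 mRNAs was similar in tumors and cultures. In the control tumors mt-Co1 was highest at 3716 ± 402 CPM per kilobase (SD, n = 4), followed by mt-Cytb at 2569 ± 288, mt-Nd1 at 1295 ± 100 and mt-Nd2 at 719 ± 74.1. Below them mt-Nd6 stood at 565 ± 93.7, mt-Nd5 at 555 ± 113 and mt-Nd4 at 534 ± 83.4, which lie within one SD of each other. In the control cells mt-Co1 was at 1025 ± 221 CPM per kilobase (SD, n = 4), mt-Cytb at 664 ± 258, mt-Nd1 at 550 ± 360 and mt-Nd2 at 273.5 ± 113. There mt-Cytb and mt-Nd1 did not differ beyond their spread, nor did mt-Nd5 at 127 ± 68.9, mt-Nd6 at 127 ± 65.0 and mt-Nd4 at 123 ± 36.6. The place of mt-Nd4 depends on the copies described above. In a second measure, only the windows of 100 bases not found in nuclear chromosomes counted as the length of each of the 7 mRNAs. By it the share of mt-Nd4 in the per-length sum of the control tumors was 10.8% in place of 5.36%. That was level with mt-Nd1, at 10.7% by the same measure.

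The level of all 7 mRNAs was higher in control tumors than in control cells. Both hold unedited B78-D14 cells, so the comparison gives the difference between culture and tumor that the edits are read against. Summed over the 7, the control cells had 0.267%, 0.296%, 0.550% and 0.336% of all counts in cultures 1 to 4, and the control tumors had 1.26%, 1.47%, 1.15% and 1.19%. Every control tumor was above every control culture, for the sum and for each of the 7 mRNAs.

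**Figure D2:**
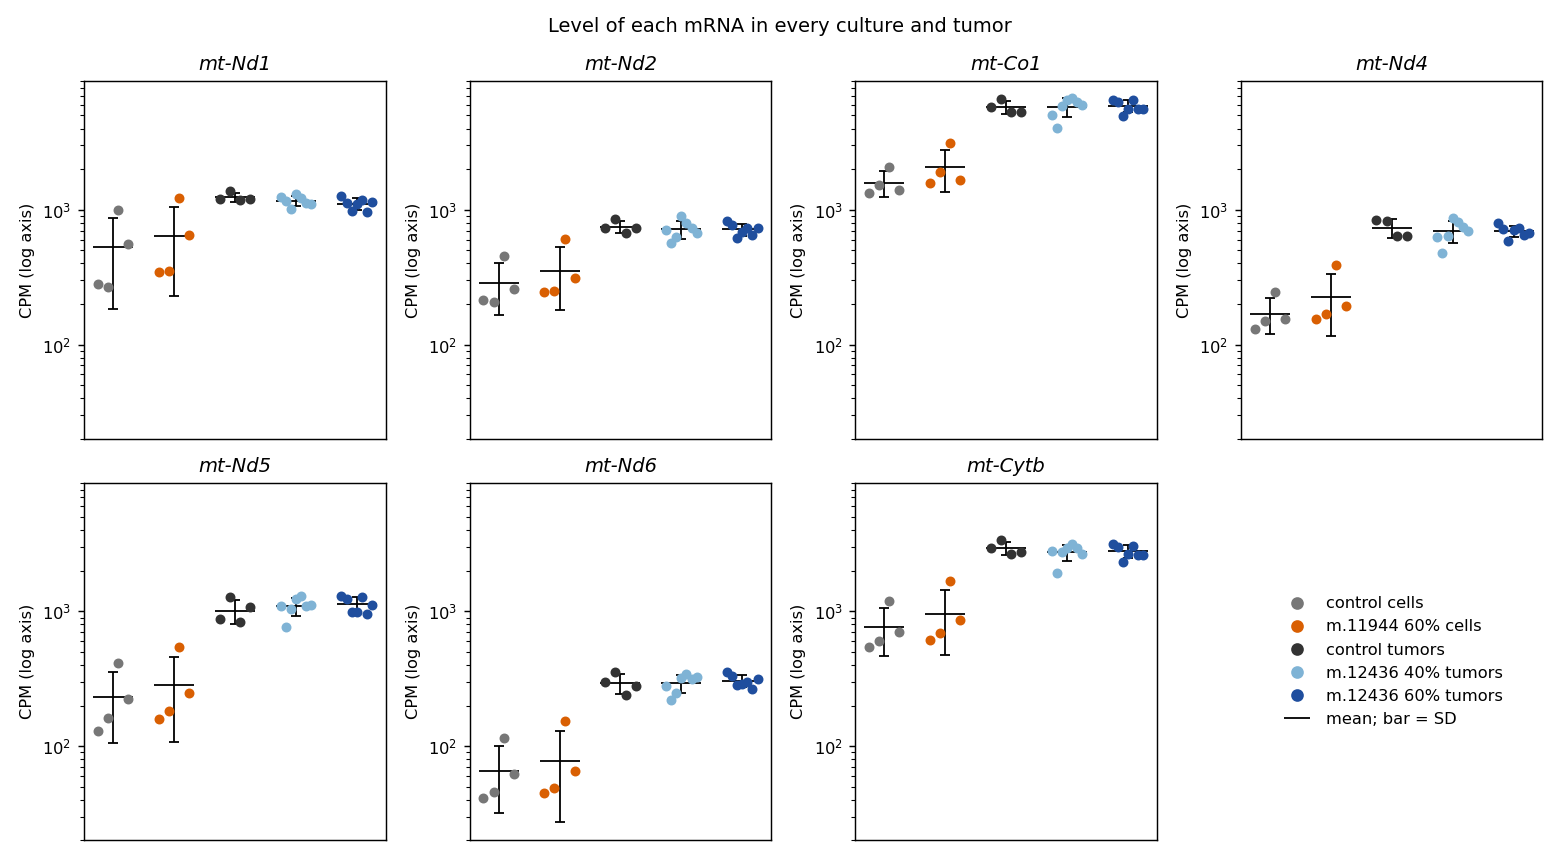
Each panel plots the level of one of the 7 mRNAs in CPM (y axis, log scale) in every sample, by group from left to right: control cells and m.11,944 60% cells (n = 4 each), control tumors (n = 4), m.12,436 40% and 60% tumors (n = 7 each), with points for samples, a horizontal line for the mean and bars for the SD. In the mt-Co1 panel the control tumors span 5273 to 6616 CPM and the control cells 1323 to 2079 CPM, and in every panel culture 3 is the highest of both culture groups.

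Among the complex I mRNAs, mt-Nd1 had 279, 268, 1002 and 556 CPM in control cultures 1 to 4 and 1204, 1381, 1170 and 1201 CPM in control tumors 1 to 4. Its fold was the smallest of the 7, at 1.91-fold (log2 0.94 ± 0.39 SE, edgeR quasi-likelihood test adjusted p = 0.0632), with culture 3 close under the tumors. mt-Nd5, the edited gene, had 130, 162, 411 and 225 CPM in the control cultures and 871, 1280, 831 and 1069 CPM in the control tumors. It was 3.55-fold higher in the tumors (log2 1.83 ± 0.34 SE, edgeR adjusted p = 0.00144), and the groups did not overlap. mt-Nd6, from the opposite strand, had 41.1, 45.5, 115 and 62.6 CPM in the control cultures and 298, 356, 239 and 279.5 CPM in the control tumors. Its rise of 3.60-fold (log2 1.85 ± 0.31 SE, edgeR adjusted p = 0.000798) was close to that of its neighbour mt-Nd5. mt-Nd4 rose 3.52-fold (log2 1.82 ± 0.21 SE, edgeR adjusted p = 8.59e-05) and mt-Nd2 2.13-fold (log2 1.09 ± 0.25 SE, edgeR adjusted p = 0.00451).

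For complex IV, mt-Co1 had 1323, 1532, 2079 and 1401 CPM in the control cultures and 5750, 6616, 5326 and 5273 CPM in the control tumors, 2.94-fold higher (log2 1.56 ± 0.17 SE, edgeR adjusted p = 6.76e-05). For complex III, mt-Cytb had 548, 598, 1192 and 700 CPM against 2933, 3405, 2671 and 2745 CPM, 3.14-fold higher (log2 1.65 ± 0.25 SE, edgeR adjusted p = 0.000383). Thus 7 of 7 mRNAs were higher at an adjusted p under 0.1, beside 35.3% of all genes tested, and 7 of 7 did not overlap in CPM, beside 42.4% of all genes tested. The call for mt-Nd1 alone did not hold under other settings: its adjusted p was 0.160 without the filter on low counts, and 0.104 to 0.129 when control culture 1, 2 or 4 or any of the control tumors was left out.

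Most nuclear genes for mitochondrial RNA processing and stability were lower in the control tumors. Of the 20 genes for mitochondrial RNA processing and stability, 18 were lower and 1 higher at an adjusted p under 0.1, beside 29.9% of all genes tested that were lower. Among them were Lrpprc, the mRNA stabilizer (log2 −1.28 ± 0.13 SE), Ptcd3, a protein of the mitochondrial ribosome (log2 −1.22 ± 0.12 SE), Mtpap, the mitochondrial poly(A) polymerase (log2 −0.99 ± 0.11 SE), and Fastkd2, an RNA-binding protein (log2 −1.31 ± 0.16 SE). The lists for mtDNA transcription and replication were divided. Of the transcription genes 3 of 7 were lower, namely Tfam, which packages mtDNA and starts transcription (log2 −0.80 ± 0.11 SE), Tfb2m, a second initiation factor (log2 −0.78 ± 0.17 SE), and Tefm, an elongation factor (log2 −0.69 ± 0.15 SE). Of the replication genes 4 of 7 were lower and 1 was higher, Polg, the mtDNA polymerase (log2 0.30 ± 0.12 SE, edgeR adjusted p = 0.0548).

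Most nuclear partners of the 7 mRNAs within the complexes were lower as well. Of the nuclear core subunits of complex I, 6 of 7 were lower, with Ndufv2 at log2 −1.08 ± 0.11 SE and Ndufs1 at log2 −0.90 ± 0.10 SE. Of the nuclear subunits of complex III 7 of 9 were lower, and of complex IV 9 of 10. The median log2 fold change was −0.64, −0.75 and −0.61 for these lists, against 1.65 for the 7 mtDNA mRNAs and 0.038 for all genes tested. The mtDNA rRNAs did not follow the mRNAs: mt-Rnr2, the large ribosomal RNA, was lower (log2 −1.27 ± 0.35 SE, edgeR adjusted p = 0.0121) and mt-Rnr1, the small one, had a log2 fold change of −0.03 ± 0.37 SE. Of the other 6 mRNAs, 4 were higher, namely mt-Nd4l, mt-Co2, mt-Atp6 and mt-Atp8.

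Markers of host cells moved with the step from culture to tumor. All 13 leukocyte markers tested were higher in the tumors, and their summed level was 1.92 to 2.62 CPM over the 8 cultures, with 10 to 12 of 14 markers at 0, and 501 to 650 CPM in control tumors. Summed erythroid markers went from 0.14 to 0.47 CPM in cultures to 25.9 to 146 CPM, and skeletal muscle markers from 1.2 to 3.2 CPM to 7.1 to 289 CPM. Fibroblast markers went from 545 to 1548 CPM in the control cells to 10435 to 12151 CPM. The RNAs kept in the nucleus, Malat1 and Neat1, were both higher in the tumors (median log2 fold change 3.55), with a sum of 41.4 to 58.3 CPM in control cells and 513 to 833 CPM in control tumors. The part of these RNAs in the mtDNA mRNA levels was not tested.

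In m.11,944 60% cells each of the 7 mRNAs was higher than in control cells of the same culture number, by folds that were small beside the spread between numbers. The comparison asks whether a stop codon early in mt-Nd5 goes with another level of this mRNA or its neighbours. Summed over the 7 mRNAs, control cells 1 to 4 had 2666, 2959, 5498 and 3360 CPM and m.11,944 60% cells 1 to 4 had 3137, 3601, 7673 and 4004 CPM. Culture 3 was the highest in both groups, and the groups overlapped.

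mt-Nd5 had 160, 181, 543 and 250 CPM in m.11,944 60% cells 1 to 4, against the 130, 162, 411 and 225 CPM of the control cells. Its log2 fold change was 0.24 ± 0.48 SE (edgeR adjusted p = 1.00). mt-Nd1 had 348, 349, 1217 and 645 CPM in the edited cells, with a log2 fold change of 0.23 ± 0.55 SE. mt-Nd6, which carries no edit, had 45.2, 48.8, 153 and 65.7 CPM and a log2 fold change of 0.19 ± 0.47 SE. mt-Co1 had 1572, 1915, 3100 and 1675 CPM (log2 0.33 ± 0.25 SE) and mt-Cytb 612, 691, 1667 and 865 CPM (log2 0.28 ± 0.37 SE). The log2 fold changes of mt-Nd2 and mt-Nd4 were 0.26 ± 0.37 SE and 0.35 ± 0.33 SE. In this fit 0 of 7 passed the test (edgeR; unadjusted p under 0.05 for 0 of 7), beside 0.0387% of all genes tested, and the 2 groups overlapped for all 7.

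Cultures of the same number deviated together (correlation of their deviations from the group means 0.720 or more for every pair), so the numbers pair the cultures. With the culture number as a block, 5 of 7 mRNAs were higher at an adjusted p under 0.1, beside 3.02% of all genes tested that were higher. mt-Co1 had the largest value at log2 0.30 ± 0.07 SE (edgeR adjusted p = 0.0591), followed by mt-Nd4 at 0.29 ± 0.08 SE (adjusted p = 0.0884), mt-Nd1 at 0.25 ± 0.06 SE (adjusted p = 0.0676), mt-Cytb at 0.24 ± 0.07 SE (adjusted p = 0.0998) and mt-Nd2 at 0.23 ± 0.06 SE (adjusted p = 0.0834). mt-Nd5 itself had log2 0.20 ± 0.07 SE (edgeR adjusted p = 0.117) and mt-Nd6 log2 0.13 ± 0.08 SE (adjusted p = 0.331), and neither passed the test. Within pairs the edited culture was above its control in 4 of 4 pairs for every one of the 7, by 1.11-fold to 1.32-fold for mt-Nd5, 1.05-fold to 1.34-fold for mt-Nd6, 1.13-fold to 1.59-fold for mt-Nd4 and 1.19-fold to 1.49-fold for mt-Co1. With pair 1, 2, 3 or 4 left out, 0, 0, 1 and 4 of the 7 mRNAs were called, mt-Nd5 among the last (edgeR adjusted p = 0.098). The size of the differences moved little for some mRNAs and more for others. Without pair 1, 2, 3 or 4 the log2 fold change of mt-Nd1 was 0.25, 0.22, 0.25 and 0.27. That of mt-Co1 was 0.34, 0.31, 0.22 and 0.32, that of mt-Nd4 0.34, 0.35, 0.19 and 0.30, and that of mt-Nd6 0.15, 0.16, 0.049 and 0.16.

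Other genes of the pathway gave few calls in the paired fit. Of the other 6 mtDNA mRNAs 0 passed, with a median log2 fold change of 0.24, the same as for the 7, against 0.0052 for all genes tested. Of the 20 genes for RNA processing and stability 1 was lower, beside 4.09% of all genes tested that were lower, and the other 19 did not pass. The 1 was Trmt10c, a subunit of the mitochondrial RNase P that cuts tRNAs from the precursor (log2 −0.51 ± 0.10 SE, edgeR adjusted p = 0.0344). None of the 7 transcription, 7 replication, 7 complex I, 9 complex III or 10 complex IV genes passed in the paired fit. RNAs kept in the nucleus differed between the same cultures: the sum of Malat1 and Neat1 was 41.4, 41.7, 58.3 and 53.2 CPM in control cells and 87.6, 79.7, 104 and 65.0 CPM in edited cells, and both were higher in the paired fit. Their part in the mRNA levels was not tested.

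As shares of the 7, the cultures differed more by number than by genotype. mt-Nd5 took 4.88%, 5.46%, 7.47% and 6.70% of the 7 mRNAs' counts in control cells 1 to 4 and 5.11%, 5.04%, 7.07% and 6.24% in m.11,944 60% cells. The difference of mean log2 shares was −0.06 (exact two-sided permutation test p = 0.686, where 0.0286 is the smallest possible). mt-Nd1 took 10.5%, 9.04%, 18.2% and 16.6% in the control cells, with cultures 3 and 4 above cultures 1 and 2, and 11.1%, 9.69%, 15.9% and 16.1% in the edited cells. mt-Co1 went the other way, with 49.6%, 51.8%, 37.8% and 41.7% in the control cells and 50.1%, 53.2%, 40.4% and 41.8% in the edited cells. Exact permutation p-values were 0.457 (mt-Nd4) to 0.971 (mt-Nd1) for the 7 shares, and 0 of 7 shares were separated between the groups, beside 0.967% of all genes tested when counted relative to the 7 mRNAs. Within pairs the mt-Nd6 share was lower in the edited culture in 4 of 4 pairs, from 1.54%, 1.54%, 2.09% and 1.86% in control cells 1 to 4 to 1.44%, 1.35%, 2.00% and 1.64%, and the mt-Co1 share was higher in 4 of 4 pairs. Both had a paired exact permutation p of 0.125, the smallest that 4 pairs allow, so no paired share test could reach 0.05.

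**Figure D3:**
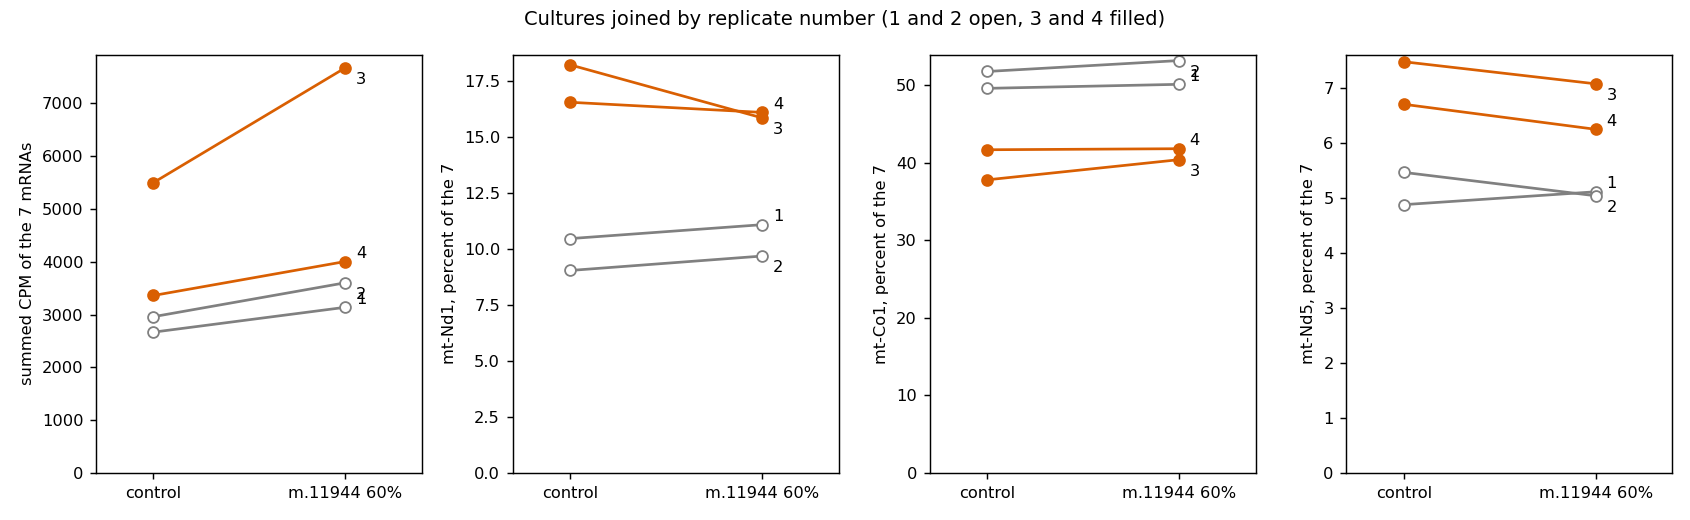
The panels plot, from left to right, the summed CPM of the 7 mRNAs and the percent of their counts taken by mt-Nd1, mt-Co1 and mt-Nd5 (y axes, from 0) in control and m.11,944 60% cells (x axis), one point per culture, joined by culture number, with 1 and 2 open and 3 and 4 filled. The sum is higher in the edited culture in 4 of 4 pairs, up to 7673 CPM in culture 3, and cultures 3 and 4 lie above 1 and 2 for mt-Nd1 and mt-Nd5 and below them for mt-Co1.

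In the tumors no level of the 7 mRNAs passed the test in m.12,436 60% against control tumors, while the shares of mt-Nd1 and mt-Cytb among the 7 were lower. The comparison asks the same of a later stop codon in mt-Nd5, in tumors. mt-Nd5 ranged from 963 to 1299 CPM with a median of 1116 in 7 m.12,436 60% tumors, against 871, 1280, 831 and 1069 CPM in control tumors 1 to 4. The groups overlapped, and the log2 fold change was 0.16 ± 0.12 SE (edgeR adjusted p = 0.532). It depended on single control tumors, with 0.093 without control tumor 1 and 0.28 without control tumor 2 (edgeR adjusted p = 0.245). mt-Nd1 ranged from 955 to 1264 CPM with a median of 1125, mostly below the 4 control tumors at 1170 to 1381 CPM. Its log2 fold change was −0.16 ± 0.07 SE, with an unadjusted edgeR p of 0.0419 and an adjusted p of 0.284. It was the single one of the 7 at an unadjusted p under 0.05, beside 16.3% of all genes tested.

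The other complex I mRNAs had log2 fold changes smaller than their standard errors. mt-Nd2 ranged from 613 to 828 CPM (median 730.0) in the m.12,436 60% tumors against 732, 852, 667 and 734 CPM in the control tumors, a log2 fold change of −0.05 ± 0.09 SE. mt-Nd4 ranged from 587 to 797 CPM (median 701) against 843, 828, 638 and 636 CPM, a log2 fold change of −0.08 ± 0.11 SE. mt-Nd6 ranged from 267 to 353 CPM (median 302) against 298, 356, 239 and 279.5 CPM, a log2 fold change of 0.08 ± 0.10 SE. These 3 overlapped between groups. mt-Cytb ranged from 2327 to 3159 CPM (median 2659; log2 −0.07 ± 0.10 SE) and mt-Co1 from 4960 to 6554 CPM (median 5608; log2 0.04 ± 0.11 SE), and both overlapped with the control tumors. In all, 0 of 7 passed the test (edgeR adjusted p 0.284 to 0.878), beside 2.31% of all genes tested.

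**Figure D4:**
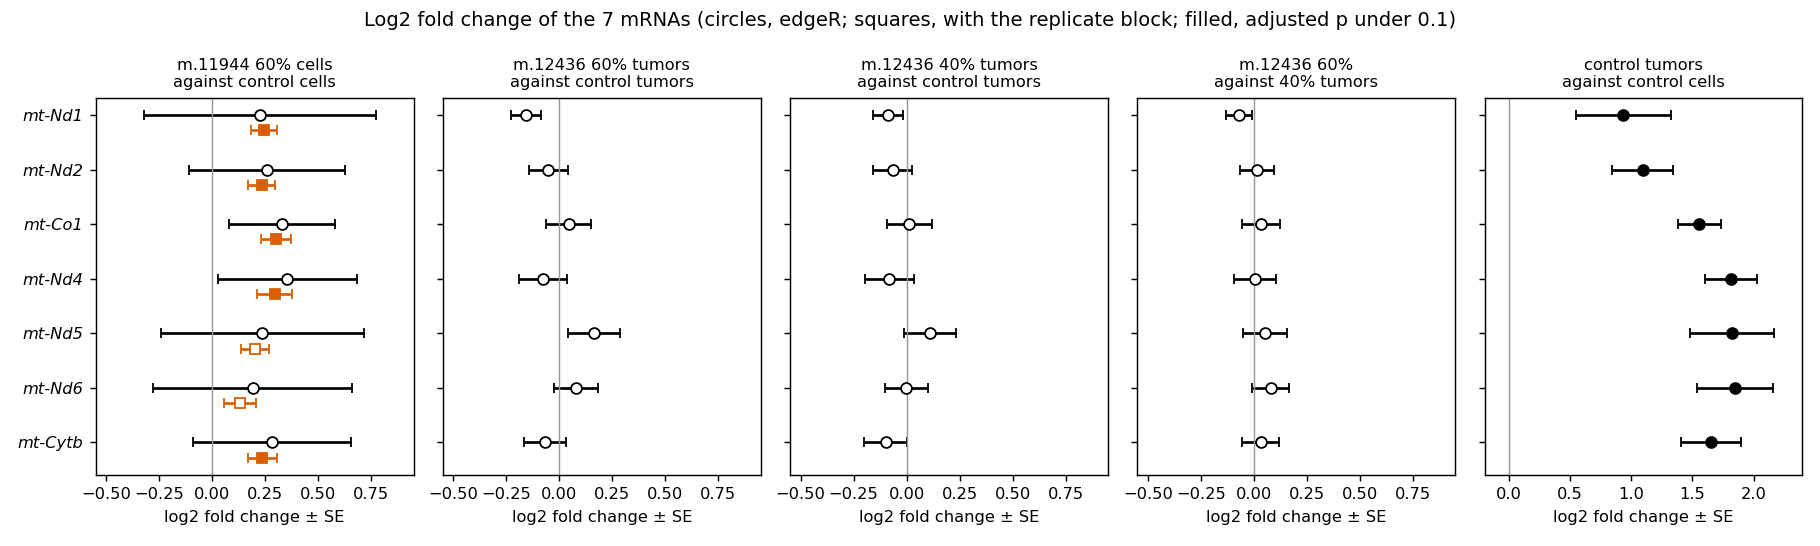
The panels give the log2 fold change of each of the 7 mRNAs (x axis, bars: SE) in the 5 comparisons, as circles for the edgeR fit and squares for the fit with the culture number as a block, filled where the adjusted p is under 0.1; the panel of control tumors against control cells has a wider axis. Between tumor groups every circle lies between −0.16 (mt-Nd1) and 0.16 (mt-Nd5), both in m.12,436 60% against control tumors, and none is filled, while 5 of the 7 squares in the culture panel and all 7 circles of tumors against cells are filled.

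Of the nuclear genes for the same complexes, 3 were lower in the m.12,436 60% tumors. Ndufs8 and Ndufv1, core subunits of complex I that carry iron-sulfur clusters, had log2 fold changes of −0.27 ± 0.06 SE (edgeR adjusted p = 0.0414) and −0.23 ± 0.06 SE (adjusted p = 0.0748), the 2 of 7 that passed. Cox8a, a small subunit of complex IV, had −0.27 ± 0.07 SE (edgeR adjusted p = 0.0614), the 1 of 10 that passed. Of the complex III subunits 0 of 9 passed, of the RNA processing genes 0 of 20, of the transcription genes 0 of 7 and of the replication genes 0 of 7. The mtDNA rRNAs had log2 fold changes of 0.23 ± 0.17 SE (mt-Rnr2) and 0.21 ± 0.18 SE (mt-Rnr1), and neither these nor any of the other 6 mRNAs passed.

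Shares of the 7 mRNAs set aside what changes them all alike. mt-Nd1 took 9.53%, 9.39%, 10.1% and 10.1% of the 7 mRNAs' counts in control tumors 1 to 4 and 8.16% to 9.38% (median 8.87%) in the m.12,436 60% tumors. Every one of the 7 edited tumors was below every control tumor, by 0.16 in mean log2 share (exact two-sided permutation test p = 0.00606, the smallest possible). mt-Cytb took 23.2%, 23.1%, 23.1% and 23.0% in the control tumors and 21.7% to 22.4% (median 22.2%) in the m.12,436 60% tumors, again without overlap (difference of mean log2 shares −0.07, exact permutation p = 0.00606). Thus 2 of 7 shares were separated, beside 1.65% of all genes tested whose counts relative to the 7 mRNAs did not overlap.

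The share of mt-Co1 was higher, at 45.5%, 45.0%, 46.1% and 44.2% in the control tumors and 45.7% to 47.9% (median 46.6%) in the m.12,436 60% tumors. The difference of mean log2 shares was 0.05 (exact permutation p = 0.0242), the groups overlapped, and 7 of 7 edited tumors were above the control mean. This call was lost when control tumor 1, 2 or 4 was left out (exact permutation p 0.05 to 0.0667) and when the ratio to the geometric mean of the other 6 mRNAs replaced the share (p = 0.152). mt-Nd5, the edited mRNA, took 6.90%, 8.70%, 7.20% and 8.96% in the control tumors and 8.23% to 9.28% (median 9.12%) in the edited tumors. Control tumors 2 and 4 lay within the range of the edited tumors and 1 and 3 below it, and the difference of mean log2 shares was 0.18 (exact permutation p = 0.0970). It ran from 0.11, without control tumor 1 (exact permutation p = 0.267), to 0.24, without control tumor 4 (p = 0.05). The shares of mt-Nd2 (−0.05, exact permutation p = 0.139), mt-Nd4 (−0.07, p = 0.339) and mt-Nd6 (0.09, p = 0.218) did not pass.

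**Figure D5:**
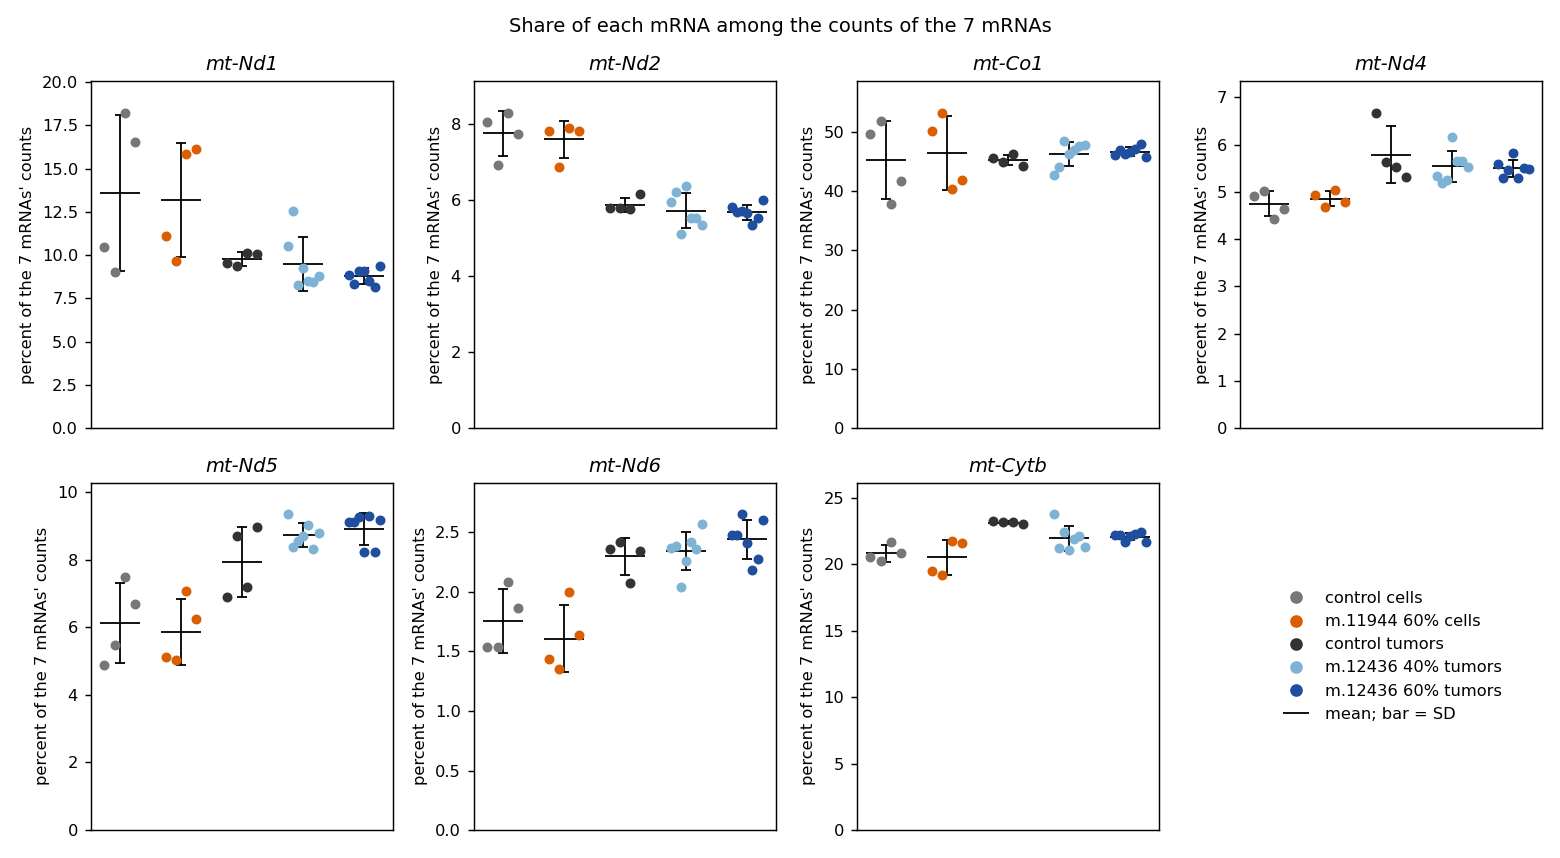
Each panel plots the share of one of the 7 mRNAs in their summed counts (y axis, percent, from 0) in every sample, by group in the order control cells, m.11,944 60% cells, control tumors, m.12,436 40% and 60% tumors, with points for samples, a horizontal line for the mean and bars for the SD. In the mt-Nd1 and mt-Cytb panels the 7 m.12,436 60% tumors (8.16% to 9.38% and 21.7% to 22.4%) lie below the 4 control tumors (9.39% to 10.1% and 23.0% to 23.2%), and the mt-Nd5 panel shows overlapping groups.

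Shares were tested 28 times, for 7 mRNAs in 4 comparisons, and 4 of the tests gave p under 0.05. Skeletal muscle RNA differed between tumors: the summed muscle markers stood at 203, 289, 8.2 and 7.1 CPM in control tumors 1 to 4 and at 7.7, 8.7, 114, 191, 7.2, 8.8 and 426 CPM in m.12,436 60% tumors 1 to 7. Among the tumors under 10 CPM (2 control and 4 m.12,436 60%) the mean log2 share was lower by 0.26 for mt-Nd1 and by 0.05 for mt-Cytb, both at the smallest possible exact permutation p of 0.133. In those tumors the difference was 0.06 for mt-Co1 (exact permutation p = 0.267) and 0.15 for mt-Nd5. Summed leukocyte markers were 501 to 650 CPM in control and 514 to 832 CPM in m.12,436 60% tumors, and erythroid markers 25.9 to 146 CPM and 15.8 to 81.8 CPM. Of 13 leukocyte markers tested 1 was higher (median log2 fold change 0.38), beside 0.962% of all genes tested that were higher. All 5 erythroid markers had negative log2 fold changes (median −1.40), and 0 passed the test. The sum of Malat1 and Neat1 was 513 to 833 CPM in control and 696 to 1178 CPM in m.12,436 60% tumors, and neither passed the test. Their part in the shares was not tested.

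In the m.12,436 40% tumors the 7 mRNAs were again at levels that overlapped with the control tumors. mt-Nd5 ranged from 768 to 1291 CPM with a median of 1103 (log2 fold change against control tumors 0.11 ± 0.12 SE, edgeR adjusted p = 0.960). mt-Nd1 ranged from 1015 to 1304 CPM with a median of 1152 (log2 −0.09 ± 0.07 SE, edgeR adjusted p = 0.945). mt-Cytb ranged from 1940 to 3143 CPM (median 2802; log2 −0.10 ± 0.10 SE) and mt-Co1 from 4035 to 6729 CPM (median 6008; log2 0.01 ± 0.11 SE). In all, 0 of 7 passed the test, beside 0% of all genes tested. At an unadjusted p under 0.05 the edgeR fit had 0 of 7 mRNAs, beside 5.09% of all genes tested (825 genes), DESeq2 called 5 genes at an adjusted p under 0.1 and limma-voom 0.

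As shares in the m.12,436 40% tumors, mt-Cytb was lower than in the control tumors, with 21.1% to 23.7% (median 21.9%) and 6 of 7 tumors below the control mean (difference of mean log2 shares −0.08, exact permutation p = 0.0303). The call was lost when any control tumor was left out (exact permutation p = 0.0667 each time) or the geometric mean ratio was used (p = 0.115). mt-Nd1 took 8.30% to 12.6% (median 8.80%) and overlapped with the control tumors (difference −0.06, exact permutation p = 0.630). With one tumor left out its difference ran from −0.13, without m.12,436 40% tumor 2 (exact permutation p = 0.114), to −0.029, without m.12,436 40% tumor 3. mt-Nd5 took 8.33% to 9.34% (median 8.71%), with 7 of 7 tumors above the control mean (difference 0.15, exact permutation p = 0.139). Of the 7 shares 0 were separated from the control tumors, beside 0.284% of all genes tested. Summed skeletal muscle markers were 55.4 to 417 CPM in the m.12,436 40% tumors and 7.1 to 289 CPM in the control tumors. All 12 muscle markers had positive log2 fold changes (median 0.74), 0 passed the test, and their part was not tested.

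No level or share of the 7 mRNAs passed a test between the m.12,436 60% and 40% tumors. These tumors grew from cells that differ in the share of mtDNA copies edited. Summed skeletal muscle markers were 7.2 to 426 CPM in the 60% tumors and 55.4 to 417 CPM in the 40% tumors. All 12 muscle markers had negative log2 fold changes (median −0.73), 0 passed the test, and their part was not tested. The log2 fold change of mt-Nd5 was 0.05 and the 7 values ran from −0.07 (mt-Nd1) to 0.08 (mt-Nd6), with standard errors of 0.06 to 0.10. In all, 0 of 7 passed (edgeR; unadjusted p under 0.05 for 0 of 7), beside 1.81% of all genes tested. The exact permutation p-values of the 7 shares were 0.309 to 0.854, and 0 of 7 shares were separated, beside 0.315% of all genes tested. The m.12,436 60% and 40% tumors were set against the same 4 control tumors, so the values of the 2 comparisons are not independent.

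The ratio of mt-Nd6 to mt-Nd5 counts, which compares the opposite strands next to their shared 14 bases, was 0.236 to 0.342 over all 26 samples. Group means lay between 0.269 and 0.292. Cultures and tumors of all genotypes thus overlapped in this ratio, while the levels of both mRNAs differed several-fold between culture and tumor.

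Over the 18 tumors the 7 mRNAs varied together to different degrees. The correlation of log2 CPM between members had a median Pearson r of 0.783 over 21 pairs, from 0.330 for mt-Nd1 with mt-Co1 to 0.910 for mt-Co1 with mt-Cytb. These tumors share the total count as the scale, and the correlations are a description. The nuclear genes most like the mean of the 7 mRNAs were Rab36 (r = 0.918), Rnf215 (r = 0.908), 1810034E14Rik (r = 0.892), Ddx5 (r = 0.879) and Cpsf7 (r = 0.872), among 12299 genes with a median r of 0.117 and a 99th percentile of 0.765.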

How the data were processed

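Per the study's methods, STAR (alignment to GRCm39) and featureCounts (counts per gene) were used on the bulk RNA-seq reads, and the authors deposited these raw counts without normalization. The library kit, strand setting and treatment of reads with several alignments are not given in the sources used here. Of 47 columns, 26 were used. The other 21, which hold further cultures and tumors, were not used here. Columns of the m.11,944 60% cells carry a code number that was matched to the group through a heading of the study's source data, and the tumor columns named high and low were read as 60% and 40% in the same way. Control columns were read as cells or tumors from the form of their numbers.

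The members and gene lists were chosen with earlier results of these data known. In R 4.3.3, edgeR 4.0.16 fitted the counts with TMM scaling, filterByExpr and a robust quasi-likelihood test, one fit per tissue and a further fit for control tumors against control cells, with Benjamini-Hochberg adjustment over all genes tested and a threshold of adjusted p under 0.1. The SE of a log2 fold change is its size over the square root of F. CPM values are counts per 1000000 counts of a sample's total. Shares were compared by exact two-sided permutation tests of mean log2 shares. Alternatives with limma-voom (limma 3.58.1), DESeq2 1.42.0, other filters, scalings and thresholds, a replicate block and samples left out are given in the closing section. For the cultures of one number the block is supported by correlated deviations (mean r 0.798). The mean between numbers, −0.265, adds nothing to this. Deviations from a group mean cancel out, so it follows largely from the first value. Simulated data were used to test the edgeR fit without a block, for some of the comparisons only. The permutation tests of shares, the sequence searches, the fits with a block, limma-voom and DESeq2 were not tested in this way. Of each list of nuclear genes at most 4 genes past the threshold are named. In some lists fewer than passed or none are named, and the rest are given as counts. Of nuclear genes like the members, the 5 with the highest r are named.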

Additional observations from a re-analysis of the deposited data

Results flagged for a closer look

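In 75 checks of a level, share or summed level in a group of 4 or 7 samples, 5 found a sample far from the others. About 5% of checks would by chance alone. The mt-Nd1 level of control tumor 2 was 1381 CPM, against 1170 to 1204 CPM in the other control tumors. The mt-Nd4 level of m.11,944 60% culture 3 was 387 CPM, against 155 to 191 CPM in the others. The mt-Cytb level of m.12,436 40% tumor 2 was 1940 CPM, against 2680.04 to 3143 CPM in the others. The mt-Nd2 share of m.11,944 60% culture 2 was 6.87%, against 7.81% to 7.90%, and that of control tumor 4 was 6.15%, against 5.78% to 5.79% in the other control tumors.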

How the results depend on the processing

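The calls in cultures depended on the pairing. In m.11,944 60% against control cells 5 genes were called, with 84 under DESeq2, 0 with at least 10 counts in every sample and 919 with the replicate block. With the block, leaving out pair 1, 2, 3 or 4 (chosen after seeing the data) gave 89, 110, 602 and 2092 genes. Of the 7 mRNAs 5 were called with the block, and 0, 0, 1 and 4 without those pairs. Without the block, leaving out one culture gave 0 genes and 0 of 7 mRNAs each time. With the block the exact p of a share in cultures could not fall under 0.125, so it tests no call there, and the paired difference in mt-Nd5 share was −0.06, the same as without pairs by construction. Tumor numbers did not pair the tumors (mean correlations −0.157 for 60% against control, −0.0049 for 40% against control and −0.026 for 60% against 40%), and with the block 283, 0 and 266 genes were called. With that block the same limit held for the shares against control tumors.

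In m.12,436 60% against control tumors 374 genes were called, with 1056 under DESeq2, 150 at an adjusted p under 0.05, 943 with the 2 groups alone, 52 in tumors under 10 CPM of muscle markers (chosen after seeing the data) and 66 to 724 with one tumor left out. For 40% against control tumors DESeq2 gave 5 and leaving out one tumor 0 to 4. For 60% against 40% tumors 293 were called, with 744 under DESeq2, 178 without the filter, 113 at 0.05 and 108 to 452 with one tumor left out. No mRNA of the 7 was called in any of these tumor fits.

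Changes of sign were mostly among values near 0. In tumors under 10 CPM of muscle markers the log2 fold changes for 60% against control tumors were 0.064 (mt-Nd2), 0.16 (mt-Nd4) and 0.11 (mt-Cytb). For 40% against control tumors mt-Co1 was −0.00035 with limma-voom and −0.084 with the block, and mt-Nd6 was 0.0044 with DESeq2 and its size factors, 0.0012 without the filter and 0.0060 with at least 10 counts. For 60% against 40% tumors mt-Nd4 was −0.0063 without the filter. Relative to the geometric mean of the other mRNAs, the differences in cultures were 0.0137 (mt-Nd1) and 0.0026 (mt-Cytb), and with the block in 40% tumors the share differences were 0.039 (mt-Nd1), 0.0044 (mt-Nd2) and −0.021 (mt-Nd6).

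With one sample left out, log2 fold changes in cultures ran from −0.29 to 0.76 (mt-Nd1), −0.14 to 0.59 (mt-Nd2), −0.043 to 0.59 (mt-Nd4), −0.29 to 0.68 (mt-Nd5), −0.37 to 0.61 (mt-Nd6), −0.13 to 0.59 (mt-Cytb) and 0.063 to 0.50 (mt-Co1). In 60% against control tumors mt-Nd2 ran from −0.084 to 0.0033, and in 40% against control tumors mt-Co1 from −0.017 to 0.078 and mt-Nd6 from −0.068 to 0.093. In 60% against 40% tumors mt-Co1 ran from −0.033 to 0.066, mt-Cytb from −0.032 to 0.067, mt-Nd2 from −0.027 to 0.071, mt-Nd4 from −0.065 to 0.058 and mt-Nd5 from −0.010 to 0.088. Log2 share differences in cultures ran from −0.19 to 0.15 (mt-Nd1), −0.081 to 0.020 (mt-Nd2), −0.16 to 0.045 (mt-Nd5), −0.044 to 0.11 (mt-Co1) and −0.053 to 0.0070 (mt-Cytb). In tumors they ran from −0.11 to 0.00084 (mt-Nd4) in 60% against control, −0.098 to 0.011 (mt-Nd4) and −0.020 to 0.061 (mt-Nd6) in 40% against control, and −0.0048 to 0.025 (mt-Co1), −0.0016 to 0.027 (mt-Cytb), −0.035 to 0.017 (mt-Nd2) and −0.025 to 0.015 (mt-Nd4) in 60% against 40%. The shares of mt-Nd1 and mt-Cytb in 60% against control tumors passed with any single tumor left out (exact permutation p 0.0095 to 0.0167). The cause of these changes was not tested.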
